A study of Mus musculus with 8 samples.

Results

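The glucocorticoid receptor gene Nr3c1, the hormone-activating enzyme gene Hsd11b1 and 7 genes known to be induced by glucocorticoids (Fkbp5, Tsc22d3, Zbtb16, Klf9, Sgk1, Rasd1 and Errfi1) were examined in mouse back skin. These 9 genes, of 49671 in the count table, were taken by name, and all 9 were among the 19099 genes with enough reads to be tested. The set was chosen by the measured levels of Rasd1 and Errfi1, which were higher in Flg knockout than in wild type. The difference between genotypes is therefore given for all 9 as a description, and where a fit over all genes called one of them this is stated but supports nothing. The samples were total RNA of whole shaved back skin from mice aged 8 weeks, 4 labelled wt/wt and 4 labelled ko/ko at Flg, the gene of the epidermal protein filaggrin. No source used here gives the strain, the sex, the construction of the ko allele or the hour of collection. Nor do the labels state that libraries of a group are from different mice, so that p-values measure only the spread between these samples, which may be technical.

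Glucocorticoids are steroid hormones that enter the cell and bind a receptor held in the cytoplasm by heat shock chaperones. The bound receptor moves to the nucleus and raises the transcription of some genes, often through the glucocorticoid response element, an inverted repeat of a short half-site, while it holds down many inflammatory genes. Skin can regenerate active hormone from its inactive form, and glucocorticoids in skin restrain inflammation, affect the epidermal barrier and act on fat cells. Their level in blood varies with the time of day and with stress.

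The inverted repeat is shown first because it is the sequence by which the receptor is best known to act on these genes. RefSeq promoter windows (build GRCm38.p6, 250 bases before to 50 bases after each annotated start) were found for 6 of the 9 genes, 14 windows in all, and for 33 of 38 other glucocorticoid-induced genes, 41 windows in all. The letters GNACANNNTGTNC, which read the same on both strands, were in 1 of the 14 windows and in 5 of the 41, against 0.475% of 32851 windows of all genes. The 29-base stretches around 4 of these matches follow, 5′ to 3′ on the strand of the gene, with the matched letters in capitals.
Sgk1: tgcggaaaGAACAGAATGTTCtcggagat
Fam107a: ggtggcttGGACATGGTGTTCtgagtctc
Mt1: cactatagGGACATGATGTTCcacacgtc
Trim63: ctggctctGAACAGTCTGTTCttgtttac
The Sgk1 stretch lies at chr10:21993694-21993722 (plus strand), Fam107a at chr14:8309877-8309905 (minus strand), Mt1 at chr8:94178987-94179015 (plus strand) and Trim63 at chr4:134314904-134314932 (plus strand). None of the 4 overlaps an exon of the deposited annotation. The fifth gene with a match was Txnip, whose stretch overlaps a deposited exon and is not shown. The 2 windows of Fam107a overlap and share 1 match. The match in Sgk1 begins 188 bases before one of the annotated starts of the gene. It was the one window of the 14 that held the longer form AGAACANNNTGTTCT, which 3 of the 32851 windows hold. The half-site AGAACA, on either strand and inside the repeats as well, was in 4 of the 14 windows (of Tsc22d3 and Sgk1). It was in 6 of the 41 windows of other induced genes (14.6%) and in 19% of all windows. By gene, 2 of the 6 genes of the set held it, against 21.3% of all genes with a window. These are matches of letters in short windows and were not set against any binding data.

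The level of the receptor itself was nearly the same in both genotypes. Nr3c1 (ENSMUSG00000024431, chromosome 18, positions 39410545 to 39491301, minus strand, mm10) stood at 337, 393, 399.5 and 365 CPM (reads of the gene scaled to the library's size and composition) in wild-type replicates 1 to 4. In knockout replicates 1 to 4 it stood at 366, 352, 375 and 364 CPM. All 4 knockout values lay within the wild-type range, and the means were 374 ± 28.9 and 364 ± 9.34 CPM (SD, n = 4 each). The fitted log2 fold change, knockout over wild type, was -0.04 ± 0.08 (SE). Nr3c1 was also the steadiest of the set: 7.86% of tested genes had a smaller spread within genotypes.

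Hsd11b1 encodes the enzyme that regenerates active glucocorticoid inside cells. It lies on chromosome 1 (positions 193221634 to 193264075) and stood at 6.36, 5.69, 7.46 and 5.62 CPM in wild type and 11.9, 8.99, 6.997 and 7.56 CPM in knockout. The knockout libraries 1, 2 and 4 were above all wild-type libraries, and knockout replicate 3 fell below wild-type replicate 3. The log2 fold change was 0.50 ± 0.18 (SE). These values rest on 142 to 451 reads a library. With the mean of 20 white adipocyte markers as a covariate, the log2 fold change of Hsd11b1 was 0.14.

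Fkbp5, Tsc22d3 and Zbtb16 are among the genes most used as readouts of receptor activity. All varied widely between libraries of one genotype, Fkbp5 and Zbtb16 more than nearly all other genes. Fkbp5 (chromosome 17, positions 28399095 to 28517524) encodes a co-chaperone that lowers the receptor's affinity for hormone and so forms a feedback loop. It stood at 185, 30.8, 68.5 and 184 CPM in wild-type replicates 1 to 4. In knockout it stood at 259, 152, 285 and 148 CPM. The genotypes overlapped, since wild-type replicates 1 and 4 exceeded knockout replicates 2 and 4. The log2 fold change was 0.85 ± 0.55 (SE), and the highest wild-type library was 6.03 times the lowest. Only 2 knockout libraries lay above every wild-type one.

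Zbtb16 (chromosome 9, positions 48654297 to 48836222) encodes the zinc finger transcription factor PLZF. Its values were 176, 33.6, 146 and 166 CPM in wild type and 319, 140.2, 305 and 141 CPM in knockout. As for Fkbp5, wild-type replicate 2 was far below the rest, knockout replicates 1 and 3 were the highest, and knockout replicates 2 and 4 lay inside the wild-type range. The log2 fold change was 0.79 ± 0.51 (SE). Without wild-type replicate 2 it was 0.48 for Zbtb16 and 0.53 for Fkbp5.

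Tsc22d3 (chromosome X, positions 140539528 to 140600659) encodes the leucine zipper protein GILZ, which mediates part of the anti-inflammatory action of glucocorticoids. It stood at 362, 142, 202 and 358 CPM in wild type and 513, 418, 701 and 435 CPM in knockout. All 4 knockout libraries were above all wild-type libraries, by the smallest gap between knockout replicate 2 and wild-type replicate 1. Its means were 266 ± 111 and 517 ± 129.6 CPM (SD, n = 4 each), and the log2 fold change was 0.96 ± 0.30 (SE). Within-genotype spread of log2 CPM was smaller in 99.4% of tested genes than in Fkbp5, in 99.3% than in Zbtb16 and in 92.8% than in Tsc22d3. For Errfi1, described below, this share was 90.9%.

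**Figure D1:**
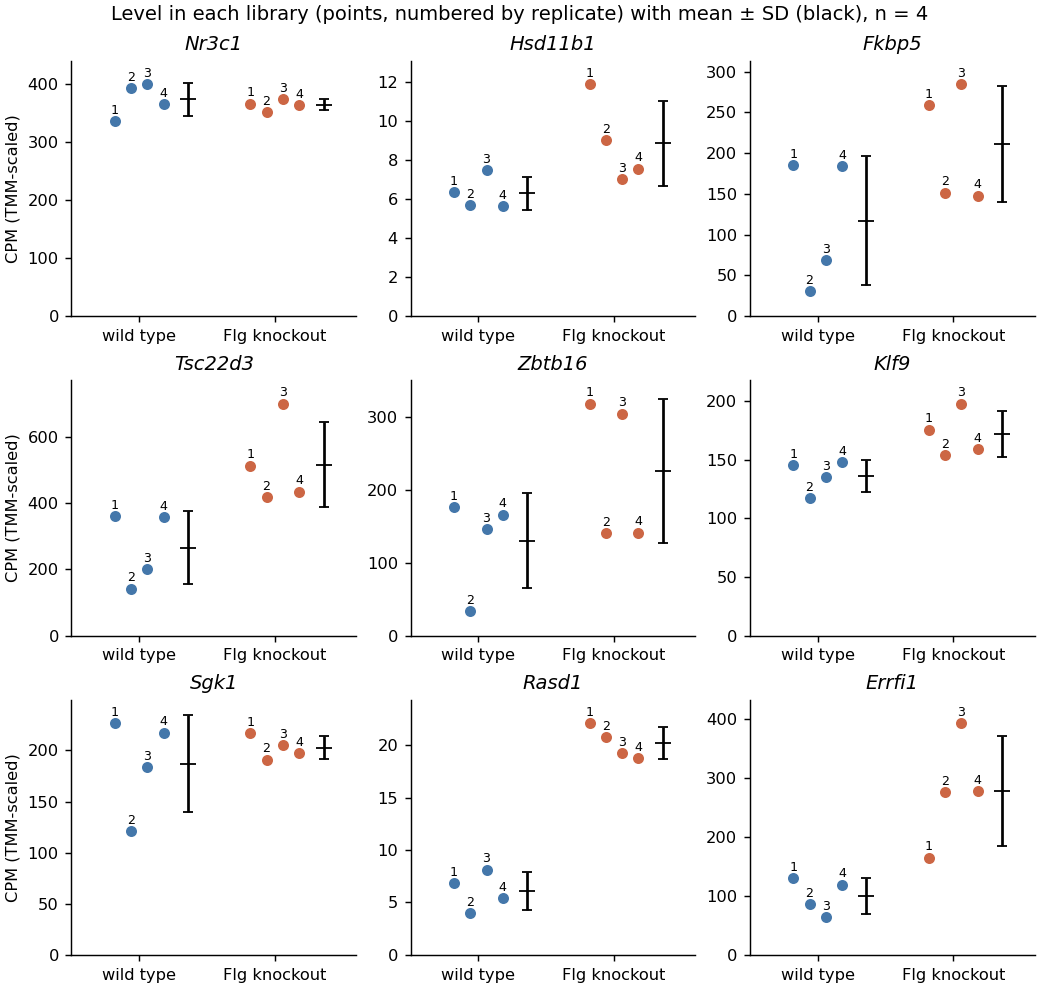
Level of each of the 9 genes in each library, in TMM-scaled CPM on a linear axis from 0. Points are libraries numbered by replicate within a genotype, and black bars are the mean and SD of 4 libraries. Rasd1, Errfi1, Tsc22d3 and Klf9 show no overlap between genotypes, while wild-type replicate 2 is the lowest wild-type library for 6 of the 9 genes.

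Klf9 and Sgk1 differed less between genotypes. Klf9 (chromosome 19, positions 23141226 to 23166911), a Krüppel-like transcription factor gene that in epidermis is linked to slower keratinocyte division, stood at 145, 118, 135 and 148 CPM in wild type and 176, 154, 198 and 159 CPM in knockout. The genotypes did not overlap, although the log2 fold change was 0.33 ± 0.10 (SE). Sgk1 (chromosome 10, positions 21882184 to 21999903), the gene of a kinase that regulates ion transport and holds the inverted repeat shown above, stood at 227, 121, 184 and 218 CPM in wild type. In knockout it stood at 217, 191, 206 and 197 CPM, all inside the wild-type range. The log2 fold change of Sgk1 was 0.11 ± 0.17 (SE), and -0.05 without wild-type replicate 2.

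Rasd1 and Errfi1, the 2 genes for which the set was chosen, were the farthest apart between genotypes. Rasd1 (ENSMUSG00000049892, chromosome 11, positions 59963181 to 59964944) encodes a small Ras-like GTPase first known as dexamethasone-induced. It stood at 6.85, 3.99, 8.13 and 5.42 CPM in wild type and at 22.1, 20.8, 19.2 and 18.7 CPM in knockout. Every knockout library held more than every wild-type library, and the knockout libraries were close together. The means were 6.10 ± 1.79 and 20.2 ± 1.54 CPM (SD, n = 4 each), 3.31-fold apart or 1.73 ± 0.19 (SE) on the log2 scale. The wild-type values rest on 101 to 237 reads a library.

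Errfi1 (ENSMUSG00000028967, chromosome 4, positions 150853919 to 150868892) encodes MIG6, an inhibitor that binds the kinase of the EGF receptor family. It stood at 130.2, 86.8, 64.9 and 119.6 CPM in wild type and at 165, 277, 394 and 278 CPM in knockout. The genotypes did not overlap, but knockout replicate 1 stood nearer to wild-type replicate 1 than to the other knockout libraries. The means were 100.4 ± 29.98 and 278 ± 93.3 CPM (SD, n = 4 each), 2.77-fold apart or 1.47 ± 0.28 (SE) on the log2 scale. Of the 4 receptor genes whose products MIG6 can bind (Egfr, Erbb2, Erbb3 and Erbb4), 0 of 4 passed edgeR's test over all genes, with 1 at an unadjusted p under 0.05 (as 19.5% of all tested genes) and 0 called by DESeq2. Egfr had a log2 fold change of 0.26 ± 0.09 (SE, edgeR adjusted p = 0.17).

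In the fit over all genes (edgeR quasi-likelihood, adjusted p under 0.05), Rasd1 and Errfi1 were the 2 of 9 genes called, where 1.41% of tested genes were called. Since this contrast chose the set, nothing is read from that count. Of the 9, 8 had a log2 fold change above 0 (46.7% of all tested genes did), with a median of 0.79 against -0.02 over all genes. Every knockout library was above every wild-type library in 4 of the 9, Tsc22d3, Klf9, Rasd1 and Errfi1, as in 5.57% of tested genes, and none of the 9 had every knockout library below, as 5.95% did. Without Rasd1 and Errfi1, 6 of the other 7 were above 0 with a median of 0.50, and 2 of the 7 did not overlap. These counts come from the contrast that chose the set and are given as a description. The call of Errfi1 was lost in 6 of the 8 fits with 1 library left out, all but those without wild-type replicate 3 or knockout replicate 1. None of the 9 was called with the white adipocyte marker mean as a covariate, a fit that called 10 genes higher and 8 lower of 19099. There the log2 fold change was 1.29 for Rasd1 and 2.04 for Errfi1 (edgeR adjusted p = 0.0513 and 0.0752). Because the tissue is whole skin, more transcript per cell and more cells that hold it cannot be told apart.

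Reads per transcript length (TPM, from the deposited exon lengths) gave the order of levels in wild type. Tsc22d3 was the highest at 187 ± 71.6 TPM (SD, n = 4), then Nr3c1 at 156 ± 18.8, Klf9 at 129 ± 10.8 and Sgk1 at 117 ± 27.5 TPM. Errfi1 followed at 85.7 ± 22.2, Zbtb16 at 75.9 ± 37.5, Fkbp5 at 55.8 ± 36.2, Rasd1 at 11.8 ± 3.81 and Hsd11b1 at 4.58 ± 0.82 TPM. Each gene overlapped the next in this order, apart from Rasd1 and Hsd11b1, whose wild-type ranges were 7.77 to 16.6 and 3.89 to 5.76 TPM. Tsc22d3 exceeded 96% of tested genes in mean wild-type TPM and Rasd1 43%. In knockout Tsc22d3 stood at 381 ± 84.9, Errfi1 at 249.6 ± 79.6 and Rasd1 at 40.4 ± 3.01 TPM. Exons of the 9 genes overlapped those of no other gene in the deposited annotation, so reads of an overlapping or antisense gene could not be counted for them there.

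**Figure D2:**
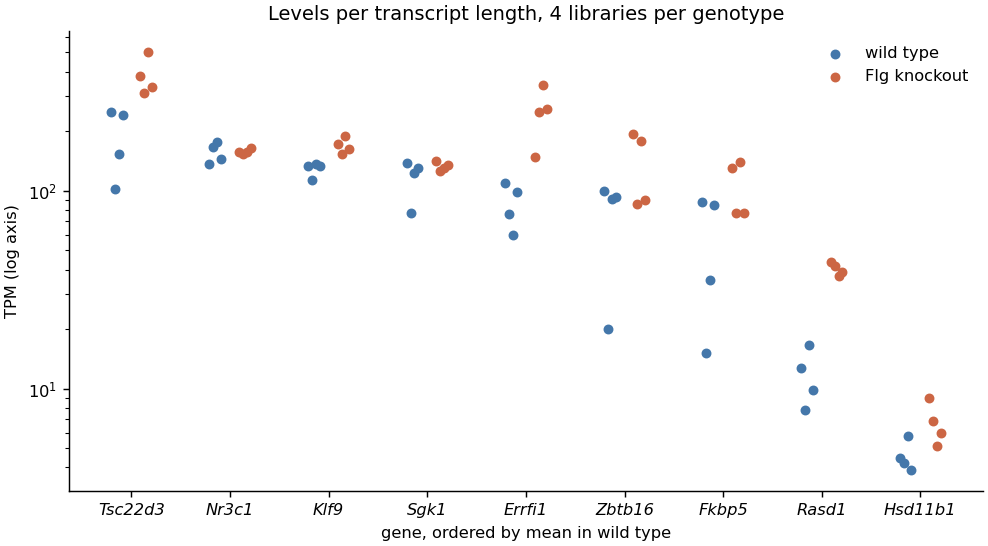
Level of the 9 genes per transcript length, in TPM on a log axis, ordered by the wild-type mean, with 4 wild-type and 4 knockout libraries as points. In wild type Rasd1 and Hsd11b1 lie lowest, at means of 11.8 and 4.58 TPM.

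The 9 genes did not share one pattern over the libraries. Likeness was measured as the root mean square (RMS) difference between 2 genes' log2 CPM profiles over the 8 libraries, each centred on its own mean. Klf9 and Sgk1 were the most alike of the 36 pairs at 0.2, then Klf9 and Nr3c1 at 0.248. Fkbp5 and Nr3c1 were the least alike at 1.05. The measure also takes in how widely a gene varies, so that genes steady over the libraries lie close together. The profile of Fkbp5 differed from that of Zbtb16 by 0.382 and from that of Tsc22d3 by 0.397. Errfi1 and Rasd1 differed from each other by 0.585. Wild-type replicate 2 was the lowest wild-type library for 6 of the 9 (Fkbp5, Tsc22d3, Zbtb16, Klf9, Sgk1 and Rasd1), and knockout replicate 3 the highest knockout library for 5 (Nr3c1, Fkbp5, Tsc22d3, Klf9 and Errfi1). Over all tested genes these shares were 27.5% and 28.4%. Errfi1 was lowest in wild-type replicate 3, and Hsd11b1 and Rasd1 were highest of wild type there.

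**Figure D3:**
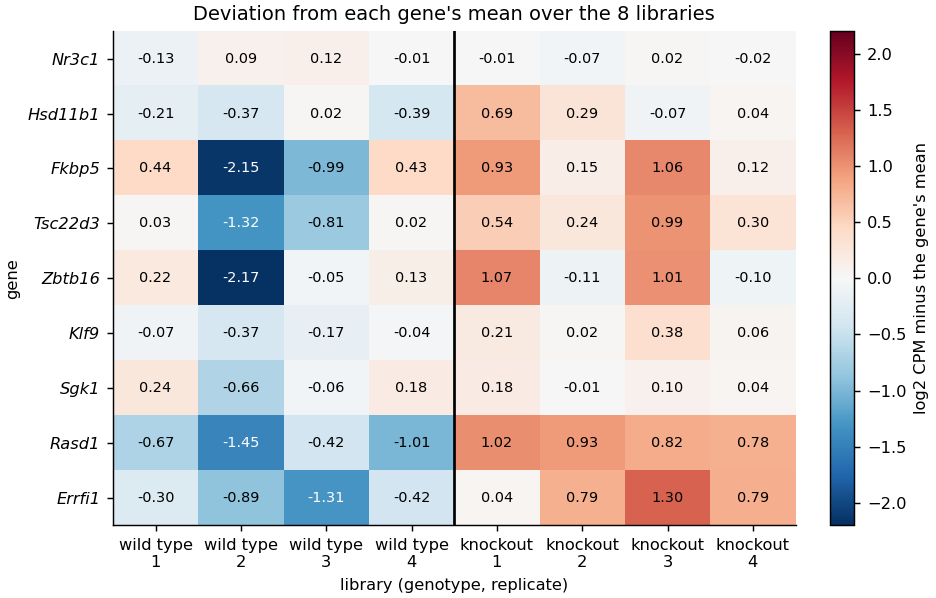
Log2 CPM of the 9 genes in each library minus the gene's mean over the 8 libraries, red above and blue below the mean. Fkbp5 and Zbtb16 are 2.15 and 2.17 below their means in wild-type replicate 2 and at least 0.93 above them in knockout replicates 1 and 3. Rasd1 is below its mean in every wild-type library, from 0.42 to 1.45 below (lowest in replicate 2), and above it in every knockout library.

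The genes nearest to Rasd1 and Errfi1 in profile were sought among the 11920 genes whose log2 CPM averaged 3 or more. Rasd1 was nearest to Pnpla3 (RMS difference 0.272), Aldh1l1 (0.276) and Acaca (0.293). Pnpla3 encodes a lipase-like protein of lipid droplets, Aldh1l1 a folate enzyme and Acaca the acetyl-CoA carboxylase of fatty acid synthesis. Pnpla3 stood at 41.4 to 59.4 CPM in wild type and 123 to 166 CPM in knockout. Errfi1 was nearest to Kcne4, a potassium channel subunit gene (0.269), Slc25a25, a mitochondrial carrier gene (0.332), and Pnp2, a purine enzyme gene (0.34). Kcne4 stood at 4.17 to 11.5 CPM in wild type and 13.7 to 20.9 CPM in knockout, with knockout replicate 1 the lowest of knockout as for Errfi1. The nearest to Fkbp5, a search added after its values were seen, were Adamtsl2 (0.365), Zbtb16 and Tsc22d3, so that 2 of the 3 were genes of the set.

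Beyond the 9, a list of 38 other genes that glucocorticoids induce in various tissues was examined, and 37 were tested. Of these 1 rose and 1 fell (edgeR, adjusted p under 0.05), where 0.712% of tested genes were called higher and 0.702% lower. The list's median log2 fold change was 0.32 against -0.02 over all genes. In the list 25 were above and 12 below 0, where 46.7% of all tested genes were above. The genotypes overlapped in the list's mean log2 CPM. It was 6.334, 5.707, 6.076 and 6.271 in wild-type replicates 1 to 4 and 6.301, 6.281, 6.542 and 6.329 in knockout replicates 1 to 4. Wild-type replicate 1 was thus above knockout replicates 1, 2 and 4, and wild-type replicate 2 was the lowest. Per1, a clock gene that glucocorticoids induce directly, rose from 96.5 ± 16.0 to 172 ± 10.1 CPM (SD, n = 4 each). Its wild-type values were 98.9, 115, 96.1 and 76.0 CPM and its knockout values 171, 159, 174 and 183 CPM, with no overlap. The log2 fold change was 0.83 ± 0.11 (SE, edgeR adjusted p = 0.0151).

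Cdkn1c, the gene of the cell cycle inhibitor p57, fell from a mean of 20.4 ± 6.09 CPM to one of 8.76 ± 0.73 CPM (log2 fold change -1.22 ± 0.20, SE, edgeR adjusted p = 0.0266), and was lower in 4 of 4 knockout libraries than in any wild-type one. The transcriptional repressor gene Bcl6 at 0.37 ± 0.09, the mTOR inhibitor gene Ddit4 at 0.86 ± 0.20 and the lipid droplet gene Plin4 at 1.15 ± 0.27 (log2 fold change ± SE) did not pass (edgeR adjusted p = 0.0588, 0.0651 and 0.0709). The lipoprotein lipase inhibitor gene Angptl4 and the pyruvate dehydrogenase kinase gene Pdk4, named after their values were seen, were at -1.13 ± 0.37 and -0.66 ± 0.25. Neither passed with all 8 libraries (edgeR adjusted p = 0.156 and 0.192), and the genotypes overlapped in both. Leaving out knockout replicate 2 or 4 ended the call of Per1 (edgeR adjusted p = 0.0545 to 0.0673). That of Cdkn1c ended on leaving out knockout replicate 1, 2 or 4 or wild-type replicate 1 or 4 (0.0671 to 0.108). The list's calls numbered 7 without wild-type replicate 3, 3 without knockout replicate 3 or wild-type replicate 2, and fell to 0 on leaving out knockout replicate 2 or 4. There was 1 call on leaving out knockout replicate 1 or wild-type replicate 1 or 4.

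**Figure D4:**
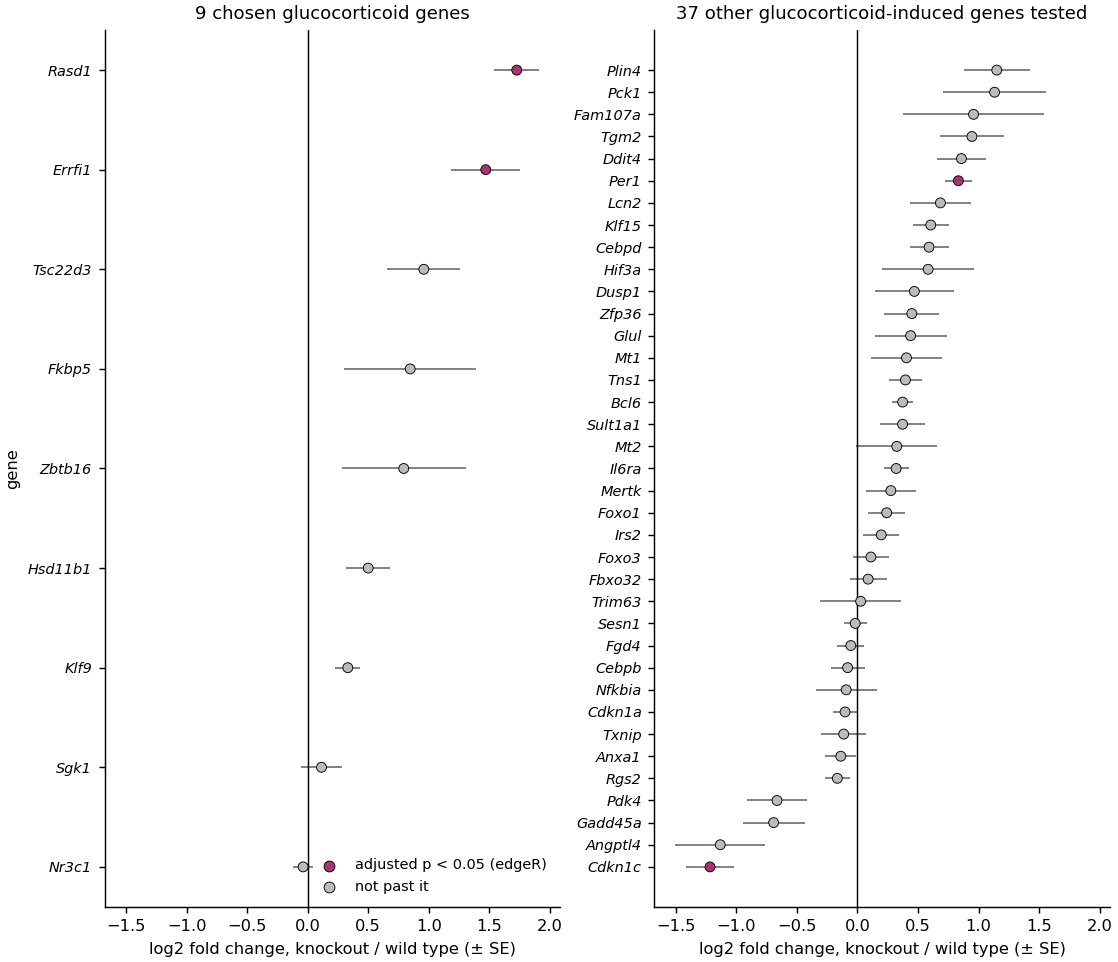
Log2 fold change of knockout over wild type with its SE, for the 9 genes (left) and the 37 other glucocorticoid-induced genes tested (right), with genes past an edgeR adjusted p of 0.05 in purple. On the right Per1 (0.83) and Cdkn1c (-1.22) are past it, and 25 of 37 lie above 0.

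The low value of wild-type replicate 2 extended to this list and beyond it. Wild-type replicate 2 was the lowest wild-type library for 24 of the 37 genes (64.9%), against 27.5% of all tested genes. Knockout replicate 3 was the highest knockout library for 22 (59.5%), against 28.4%. Wild-type replicate 2 also had the lowest wild-type sum of white adipocyte (2641 CPM), keratinocyte (13500), fibroblast (23630), sebaceous gland (2241) and endothelial (341) markers. Its sums of skeletal muscle, immune and hair shaft markers were not the lowest of wild type. Fam107a and the hypoxia-inducible factor gene Hif3a, both named after their values were seen, had the same low library as Fkbp5. Fam107a stood at 7.43, 0.87, 2.49 and 6.57 CPM in wild type and 10.7, 4.28, 12.95 and 6.02 CPM in knockout, with 22 reads in wild-type replicate 2. Hif3a stood at 4.998, 1.46, 4.38 and 3.64 CPM in wild type and 7.13, 3.48, 7.62 and 3.44 CPM in knockout. In both genes the genotypes overlapped and knockout replicates 1 and 3 were the highest of all libraries. The mean log2 CPM of 25 immediate early genes was lowest of wild type in replicate 3 (4.87), with replicate 2 next at 4.999. It was lowest of knockout in replicate 1 and highest of knockout in replicate 3. Among the 37 induced genes, knockout replicate 1 was also most often the lowest knockout library, for 16 (43.2%), against 28.7% of all tested genes.

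Of 20 genes for the receptor's chaperones and coregulators and the related mineralocorticoid receptor, 1 of 20 rose and 0 fell (0.712% and 0.702% of all tested genes did). This was Nrip1, a corepressor gene, which went from 84.2 ± 6.44 to 111 ± 6.77 CPM (log2 fold change 0.40 ± 0.08, edgeR adjusted p = 0.0439) and was higher in 4 of 4 knockout libraries. The list's median was 0.15, with 17 above 0 (46.7% of all tested genes were). Med1, a Mediator subunit gene, stood at 0.24 ± 0.07 and the chromatin remodeller gene Smarca4 at 0.16 ± 0.08 (edgeR adjusted p = 0.101 and 0.294). The Nrip1 call was lost on leaving out any 1 of the 4 knockout libraries or wild-type replicate 1 or 4 (0.0762 to 0.138). The list had 3 calls without wild-type replicate 3 and 0 without those 6.

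Among 20 genes of corticosteroid synthesis, metabolism and transport, 10 were tested, and 10 had too few reads in these libraries, among them the hormone precursor gene Pomc and the inactivating enzyme gene Hsd11b2. Mrap, which encodes a partner of the ACTH receptor and is also made by fat cells, rose from 4.39 ± 2.12 to 14.2 ± 3.73 CPM (log2 fold change 1.70 ± 0.32, edgeR adjusted p = 0.0409). Srd5a1, the gene of a steroid 5-alpha-reductase, fell from 28.6 ± 3.30 to 20.2 ± 0.94 CPM (-0.50 ± 0.10, edgeR adjusted p = 0.0445). Both were apart in all 4 knockout libraries from all wild-type ones, and the list's median was 0.12. Over all tested genes 0.712% were called higher and 0.702% lower. H6pd, whose product supplies the cofactor of the Hsd11b1 enzyme, stood at 49.6, 35.3, 59.2 and 45.1 CPM in wild type and 80.6, 77.2, 64.5 and 74.3 CPM in knockout. It did not pass (0.65 ± 0.14, edgeR adjusted p = 0.0514), nor did the ACTH receptor gene Mc2r (1.20 ± 0.37, adjusted p = 0.13) or Cyp17a1 (0.26 ± 0.12, adjusted p = 0.259). The call of Mrap ended on leaving out knockout replicate 1, 2 or 4 or wild-type replicate 1 or 4 (0.0922 to 0.123), and that of Srd5a1 on leaving out any of those or knockout replicate 3 (0.0928 to 0.146). Mrap did not pass without the filter on low counts (edgeR adjusted p = 0.101), where H6pd did, nor with the adipocyte covariate (0.80, adjusted p = 0.148). The list had 4 calls without wild-type replicate 3.

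Inflammatory genes that glucocorticoids repress gave 0 higher and 1 lower of 18 tested (0.712% and 0.702% of all tested genes). Of the 18, 9 were above and 9 below 0, where 46.7% of all tested genes were above. The median was -0.02, the same as over all genes. The lower one was Tslp, the gene of an epithelial cytokine, which fell from 9.14 ± 3.18 to 4.04 ± 0.81 CPM (-1.16 ± 0.25, edgeR adjusted p = 0.0496). All 4 knockout libraries were below all wild-type ones, but the call stood without wild-type replicate 3 alone and was lost on leaving out any other library (0.0613 to 0.158). Ccl5 at -0.92 ± 0.28, Cxcl10 at -0.95 ± 0.38 and Il1b at 0.58 ± 0.28 did not pass (edgeR adjusted p = 0.114, 0.208 and 0.289).

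Immediate early and clock genes were counted beside the set. Of 25 immediate early genes, which handling and growth signals induce, 0 passed edgeR's test, 4 had an unadjusted p under 0.05 and DESeq2 called 3, where 19.5% of all tested genes had such a p and DESeq2 called 6.16%. The list had 1 call without wild-type replicate 2 or wild-type replicate 3, and its median was 0.04. Of 18 clock genes other than Per1, 1 rose and 0 fell, where 0.712% of tested genes were called higher and 0.702% lower. The riser was Bhlhe40, from 61.7 ± 2.13 to 83.7 ± 10.4 CPM (0.44 ± 0.09, edgeR adjusted p = 0.0481). That call was lost on leaving out any 1 knockout library or wild-type replicate 1 or 4 (0.0751 to 0.153), and the list had 2 calls without wild-type replicate 3. Its median was 0.17, with 15 above 0 (46.7% of all tested genes were).

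White adipocyte markers were mostly higher in knockout, and genes named above such as Plin4 and Mrap are also expressed in fat. Of 20 such markers 0 passed edgeR's test, 13 had an unadjusted p under 0.05 (19.5% of all tested genes did) and DESeq2 called 8 (6.16% of all). Among the 20 markers 17 lay above 0 (46.7% of all tested genes did), with a median of 0.68. Their summed level was 3698, 2641, 5340 and 3423 CPM in wild type and 5924, 5795, 4120 and 5215 CPM in knockout. Wild-type replicate 3 was thus above knockout replicates 3 and 4. Without wild-type replicate 3, 14 of the 20 passed, but calls rose over all genes too. They went from 136 higher and 134 lower with all libraries to 679 higher and 646 lower. The part of fat in the values of the 9 genes was not tested. The fit with the marker mean as a covariate cannot tell fat from genotype, because that mean itself differed between genotypes. In log2 CPM it was 6.29, 5.87, 7.09 and 6.06 in wild-type replicates 1 to 4 and 7.26, 7.26, 6.72 and 7.14 in knockout replicates 1 to 4. In that fit Rasd1 (1.29), Hsd11b1 (0.14), Zbtb16 (0.60) and Sgk1 (0.01) were nearer to 0 than without the covariate. Errfi1 (2.04), Fkbp5 (1.27), Tsc22d3 (1.24), Klf9 (0.37) and Nr3c1 (-0.06) were farther from 0. Only Rasd1, Hsd11b1 and Errfi1 moved by more than the gene's within-genotype SD of log2 CPM.

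**Figure D5:**
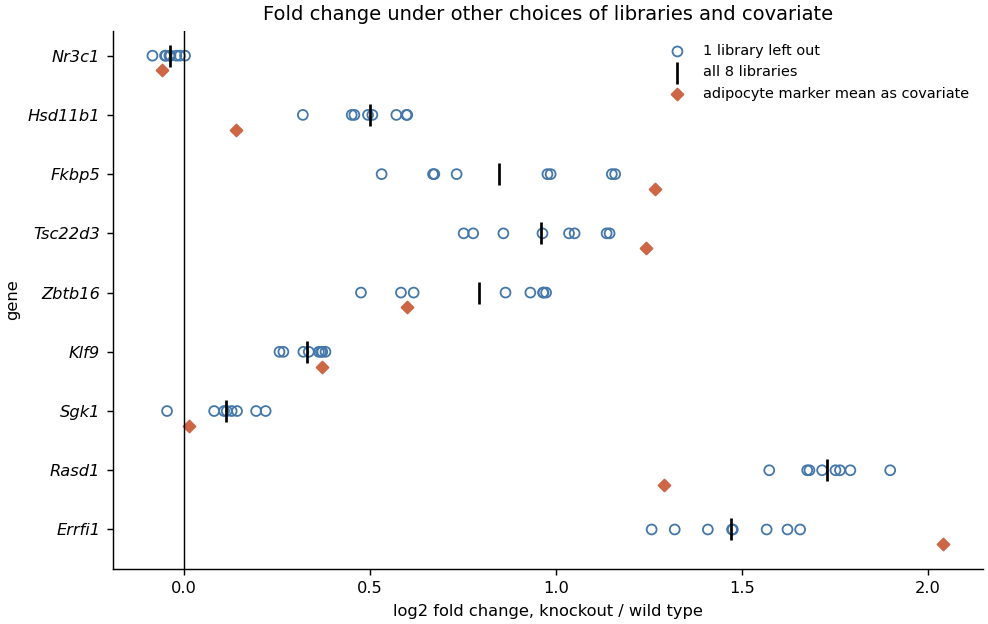
Log2 fold change of knockout over wild type for the 9 genes with all libraries (black bars), with 1 library left out (circles) and with the white adipocyte marker mean as a covariate (diamonds). The circles span 1.57 to 1.90 for Rasd1 and 0.53 to 1.16 for Fkbp5, and the diamond of Errfi1 lies at 2.04.

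As a check of the labels, Flg went from 59.0 ± 9.77 CPM in wild type to 24.5 ± 1.97 CPM in knockout (edgeR adjusted p = 0.00326). Library totals ran from 18483242 to 38545957 reads, and wild-type replicate 2, low for many of these genes, had 24495725. Markers of epidermal keratinocytes summed to 13500 to 15050 CPM in wild type and 11850 to 13560 CPM in knockout, those of fibroblasts to 23630 to 37500 and 26280 to 37940 CPM. Skeletal muscle markers summed to 15270 to 21910 and 19290 to 24030 CPM, sebaceous gland markers to 2241 to 4144 and 4559 to 8701 CPM. Immune markers summed to 579 to 1003 and 595 to 841 CPM, endothelial markers to 341 to 527 and 368 to 435 CPM, and hair shaft markers to between 9.58 and 16.0 CPM outside knockout replicate 4, where they reached 72.0 CPM. Scd1, a fatty acid desaturase gene, was the 1 sebaceous gland marker of 10 that rose (log2 fold change 1.36 ± 0.24, edgeR adjusted p = 0.0328), a call lost on leaving out knockout replicate 1, 2 or 4 or wild-type replicate 1 or 4 (0.0777 to 0.113) or without the filter on low counts (0.101). The summed sebaceous gland range did not overlap between genotypes, but Scd1 made up much of it, at means of 1952 and 5025 CPM. By the mean log2 CPM of the 10 markers wild-type replicate 3, at 6.70, was above all 4 knockout libraries (6.32 to 6.66), and 4 of the 10 had a log2 fold change below 0. The part of sebaceous glands in the values of the 9 genes was not tested.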

How the data were processed

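RNA was sequenced from 4 wild-type and 4 Flg knockout skin samples. The deposited table holds unnormalized counts of reads by gene; the submitters' processing notes name GSNAP, featureCounts 1.6.2 and mm10. No source used here gives the strand setting or the handling of multiply aligned reads. The table also holds a deposited exon length per gene (another unit, in bases) and 92 spike-in rows with at most 1 read, which were left out. Symbols came from GENCODE M21.

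edgeR 4.0.16 (R 4.3.3) was fitted on the 8 libraries with no term but genotype: filterByExpr, TMM factors, robust quasi-likelihood test, Benjamini-Hochberg adjustment over 19099 genes, calls at an adjusted p under 0.05. SE was derived from the F statistic. The fit was tested on simulated data. RMS differences used log2 CPM with a prior count of 2. Alternatives were other factors, DESeq2 1.42.0, limma 3.58.1 voom, other filters, an adipocyte covariate and leaving out each library. Replicate numbers follow sample order and pair nothing.

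The genes and the 16 lists (246 entries, 2 given by an older symbol and matched through RefSeq synonyms) were chosen with earlier results of these data known. Named were the 9 genes, list genes past the test, up to 3 more by p in the glucocorticoid lists, and the 3 nearest profiles to Rasd1 and Errfi1. The values of 1 gene that this rule names are not reported here.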

Additional observations from a re-analysis of the deposited data

Results flagged for a closer look

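Of 58 groups of 4 libraries (each named gene in each genotype), 1 held a library far from the others by Dixon's ratio, where chance would give about 1 in 20. Plin4, a lipid droplet gene, stood at 330.1 CPM in knockout replicate 3 and at 592 to 625 CPM in the other knockout libraries, while the 20 adipocyte markers summed to 4120 CPM in that library and to 5215 CPM or more in the other knockout libraries.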

How the results depend on the processing

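The direction of Rasd1, Errfi1, Tsc22d3, Fkbp5, Zbtb16, Klf9 and Hsd11b1 was the same under all 16 alternatives. With 1 library left out, log2 fold changes ran from 1.57 to 1.90 (Rasd1), 1.26 to 1.66 (Errfi1), 0.75 to 1.14 (Tsc22d3), 0.53 to 1.16 (Fkbp5), 0.48 to 0.97 (Zbtb16), 0.26 to 0.38 (Klf9), 0.32 to 0.60 (Hsd11b1), -0.05 to 0.22 (Sgk1) and -0.08 to 0.0033 (Nr3c1). Calls ran from 9 to 679 higher and 2 to 646 lower over all genes, the lowest without knockout replicate 2 and the highest without wild-type replicate 3. They ran from 1 to 2 of the 9 genes, and in the lists from 0 to 7 (other induced genes), 0 to 3 (chaperones and coregulators), 0 to 4 (corticosteroid synthesis), 0 to 1 (repressed genes and immediate early genes), 0 to 2 (clock) and 0 to 14 (adipocyte).

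DESeq2 called 591 genes higher and 586 lower, 4 of the 9 (Tsc22d3 and Klf9 too), and 8, 2, 4, 2, 3, 2 and 8 genes of those lists in the same order, with repressed and immediate early genes as separate entries. Without a filter on low counts there were 234 higher and 268 lower, 1 of the 9 (Rasd1), 4 other induced genes and 1 immediate early gene, and Mrap and Scd1 were not called (adjusted p = 0.101 each). With the adipocyte marker mean as a covariate there were 10 higher and 8 lower and 0 in the 9 and in every list that had a call. Log2 fold changes were then 0.14 (Hsd11b1), 1.29 (Rasd1) and 2.04 (Errfi1). The cause was not tested. Tslp was lost (0 calls) with RLE factors, limma voom and the stricter filter. voom gave 0 clock and 3 adipocyte calls, and upper quartile factors 1 adipocyte call. No paired analysis was possible because the labels give no replicate numbers.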
